A study of Mus musculus with 31 samples.

Results

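The miR-7 family was followed across hippocampal small RNA libraries from 5-HTT knockout (KO) and wild-type (WT) mice. It comprises every mature microRNA named miR-7a or miR-7b in the deposited count tables: mmu-miR-7a-5p, mmu-miR-7b-5p, mmu-miR-7a-1-3p, mmu-miR-7a-2-3p and mmu-miR-7b-3p, which are 5 of 1966 listed microRNAs. The prefix mmu, for Mus musculus, is left out from here on. 5-HTT is the serotonin transporter, which takes serotonin back up after release. The mice were C57Bl/6 J, and the tissue was the right hippocampus. The 31 libraries fell into 6 groups: 5 KO-exercise, 2 KO-corticosterone, 6 KO-water, 5 WT-exercise, 6 WT-corticosterone and 7 WT-water. Treatments lasted 4 weeks, and corticosterone is the main glucocorticoid stress hormone of rodents. The KO mice lacked the transporter in the label's own terms (5-HTT KO), with no promoter or Cre driver named. The sources used here give no age, sex, corticosterone dose or form of exercise. The labels call the libraries of a group biological replicates, so each was taken as 1 mouse, and p-values measure the spread between these libraries.

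MicroRNAs are cut in pairs from the arms of an RNA hairpin. Usually one arm is retained as the guide that represses target messenger RNAs, and the other, the passenger arm, is degraded faster. In miR-7 the 5p arm is the guide. It is conserved from flies to mammals, is enriched in neuroendocrine cells, and in mouse brain is bound by the circular RNA Cdr1as, which carries many miR-7 sites. In the mouse miR-7a-5p comes from the hairpins Mir7-1 and Mir7-2, and miR-7b-5p comes from Mir7b.

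The mature sequences are shown because the members differ by few bases and are counted separately. They are RefSeq sequences on GRCm38.p6, 5′ to 3′, with the seed (bases 2 to 8, which pair with targets) in capitals.
miR-7a-5p: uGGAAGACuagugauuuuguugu
miR-7b-5p: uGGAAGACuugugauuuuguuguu
miR-7a-1-3p: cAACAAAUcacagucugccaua
miR-7a-2-3p: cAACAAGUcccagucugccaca
miR-7b-3p: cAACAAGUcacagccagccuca

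miR-7a-5p and miR-7b-5p share their seed, and no other of 1679 RefSeq mouse mature microRNAs has it. They differ by A10U, counted from 1 at the 5′ end of miR-7a-5p, and miR-7b-5p is 24 bases long against 23 for miR-7a-5p. The sources used here do not say how reads that misread that base were assigned, so the split between miR-7a-5p and miR-7b-5p is uncertain. The 3p arms are each 22 bases long and are easier to separate: miR-7a-2-3p differs from miR-7a-1-3p by A7G, A10C and U21C, and miR-7b-3p differs from miR-7a-1-3p by A7G, U14C, U16A, A20U and U21C. A7G lies within the seed, so miR-7a-2-3p and miR-7b-3p share a seed that miR-7a-1-3p lacks.

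The hairpins follow with the mature arms in capitals, to show which bases are read as which member.
Mir7-1: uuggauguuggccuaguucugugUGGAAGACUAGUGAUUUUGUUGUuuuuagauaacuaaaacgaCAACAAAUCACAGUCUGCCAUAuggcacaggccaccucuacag
Mir7-2: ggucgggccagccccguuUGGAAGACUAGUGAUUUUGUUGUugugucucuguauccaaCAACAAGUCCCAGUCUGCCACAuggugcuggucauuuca
Mir7b: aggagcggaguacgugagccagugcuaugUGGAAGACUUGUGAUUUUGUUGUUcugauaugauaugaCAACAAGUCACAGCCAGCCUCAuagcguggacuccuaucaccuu

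Mir7-1 occupies chr13:58392779-58392886 on the minus strand, in an intron of Hnrnpk, which encodes an RNA-binding protein and is transcribed from the same strand. Mir7-2 lies at chr7:78888277-78888373 on the plus strand, outside annotated genes and 7481 bp from Aen, the nearest protein-coding gene. Mir7b lies at chr17:56242988-56243098 on the plus strand, also outside genes, 13712 bp from Fem1a. No other annotated microRNA hairpin was within 10 kb of any of them. Since Mir7-1 and Mir7-2 give the same 5p sequence, miR-7a-5p counts cannot be divided between them, and only the 3p arms tell the hairpins apart. The sources used here do not say how reads that match both hairpins were counted.

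Total counts ran from 1011285 to 4052174 per library, and every miR-7 arm was counted in every library, with 68 counts the lowest value. Levels are given as CPM, counts divided by library size in units of 1000000 reads after TMM scaling over all 31 libraries. A microRNA is read whole, so no length correction was applied. The counts are of amplified reads without molecular identifiers, and ligation can favour some sequences, so the order of arms is an order of reads. The authors' table for the genotype comparison holds only KO-water replicates 3, 4 and 6, beside the WT-water libraries and 1 column that the labels assign to a KO-exercise mouse, used here as KO-exercise. Those 3 KO-water libraries stood apart from KO-water replicates 1, 2 and 5: of 532 microRNAs tested, 154 were called higher and 136 lower (adjusted p under 0.05 in edgeR's test). Results that rest on KO-water are therefore given for all 6 libraries, and several of them also for 1 or both sets of 3. No messenger RNA was measured, so the libraries hold no check of the transporter genotype.

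The 5p guides made up most of the family. Over all 31 libraries miR-7a-5p averaged 3241 ± 747 CPM (SD) and ranked 48th by mean level, between miR-132-3p at 3541 CPM and miR-185-5p at 2900 CPM. miR-7b-5p averaged 1119 ± 209 CPM and ranked 84th. The 3p passengers were lower, with miR-7a-1-3p at 223 ± 91.2 CPM (rank 177), miR-7a-2-3p at 169.8 ± 44.0 CPM (rank 207) and miR-7b-3p at 129 ± 68.1 CPM (rank 226). Of all family counts in a library, miR-7a-5p took 66.1% ± 2.80 and miR-7b-5p 23.05% ± 1.71 (SD, n = 31), and all 5 arms together took 0.489% ± 0.104 of the library's counts.

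**Figure D1:**
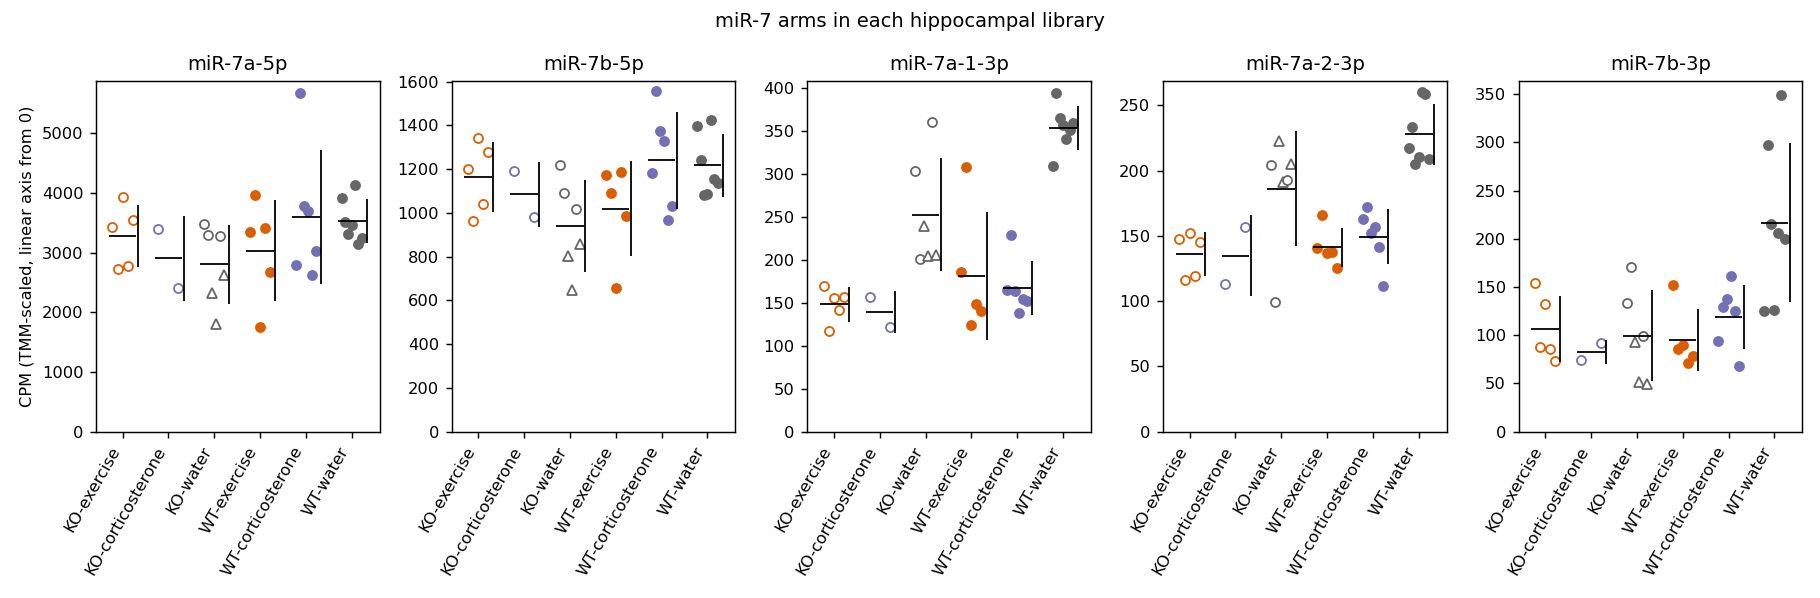
Level of each miR-7 arm in CPM (linear axes from 0) in every library of the 6 groups, with horizontal lines at group means and vertical lines of 1 SD on either side; KO libraries are open, and triangles are the 3 KO-water libraries of the authors' genotype table. The WT-water libraries are the highest group for miR-7a-1-3p and miR-7a-2-3p, at means of 354 and 228 CPM, while the miR-7a-5p and miR-7b-5p groups overlap.

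Exercise and corticosterone in WT mice were accompanied by lower passenger arms and by no called change of the guides. miR-7a-1-3p, from the Hnrnpk intron, had 124.5, 141, 148, 186 and 308 CPM in the WT-exercise libraries. In WT-corticosterone its lowest, median and highest levels were 138, 159 and 228.5 CPM. In WT-water they were 309.6, 357 and 394 CPM. Every treated WT library thus lay below every WT-water library, as for 5.79% of microRNAs with exercise and 6.58% with corticosterone, although WT-exercise replicate 2, at 308 CPM, fell short of the lowest WT-water library by a small margin. The group means were 181 ± 74.1 CPM in WT-exercise (SD, n = 5), 167 ± 31.7 CPM in WT-corticosterone (n = 6) and 354 ± 25.6 CPM in WT-water (n = 7).

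miR-7a-2-3p, from Mir7-2, had 125, 137, 137.5, 141 and 166 CPM in WT-exercise. Its lowest, median and highest levels were 112, 154.5 and 172 CPM in WT-corticosterone and 205, 217 and 261 CPM in WT-water. Here too no treated WT library reached the lowest WT-water library, and WT-exercise varied less than for miR-7a-1-3p (SD 15.05 CPM).

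miR-7b-3p had 71.2, 78.8, 85.6, 90.1 and 152 CPM in WT-exercise. Its lowest, median and highest levels were 67.8, 127 and 161 CPM in WT-corticosterone and 125, 206 and 349 CPM in WT-water. Its groups overlapped, since the lowest WT-water libraries lay among the highest treated ones.

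miR-7a-5p had 1754, 2678, 3346, 3411 and 3970 CPM in WT-exercise. Its lowest, median and highest levels were 2629, 3359 and 5679 CPM in WT-corticosterone and 3143, 3457 and 4130 CPM in WT-water. The treated libraries spread on both sides of the WT-water range. miR-7b-5p had 657, 988, 1092, 1171 and 1188 CPM in WT-exercise, 967, 1257 and 1557 CPM as the lowest, median and highest in WT-corticosterone, and 1081, 1153 and 1426 CPM in WT-water. WT-exercise replicate 3 was the lowest and WT-corticosterone replicate 2 the highest WT library for both guides. The order was not the same throughout: WT-exercise replicate 2 had the highest miR-7a-5p of its group, 3970 CPM, and the middle miR-7b-5p, 1092 CPM.

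In edgeR's quasi-likelihood test with Benjamini-Hochberg adjustment over all microRNAs tested, a call needs an adjusted p under 0.05, and all 5 miR-7 arms passed the low-count filter in every comparison. In WT-exercise against WT-water 3 of the 5 arms fell and none rose, where 12.7% of the 553 microRNAs tested fell and 19.9% rose (15.4% and 14.1% without scaling factors, which moved the median of all microRNAs by -0.11). The log2 fold change was -0.91 ± 0.20 for miR-7a-1-3p (SE, adjusted p = 0.00528), -0.63 ± 0.13 for miR-7a-2-3p (adjusted p = 0.00528) and -1.13 ± 0.29 for miR-7b-3p (adjusted p = 0.0115). The guides had log2 differences of -0.17 ± 0.17 for miR-7a-5p (95% interval -0.52 to 0.19, adjusted p = 0.436) and -0.20 ± 0.15 for miR-7b-5p (-0.52 to 0.11, adjusted p = 0.290). The median log2 difference over the 5 arms was -0.63, beside 0.04 over all microRNAs tested. Among libraries whose code starts with G alone, the 3 calls were lost, with adjusted p of 0.233, 0.203 and 0.293 in the order above, and the log2 changes were -0.68, -0.49 and -0.72. Among libraries with letter H alone all 3 were called, at -1.25, -0.79 and -1.82 (adjusted p of 0.00595, 0.0279 and 0.00994 in edgeR's test). The labels do not say what that letter stands for.

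In WT-corticosterone against WT-water the same 3 arms fell, where 17% of the 547 microRNAs tested fell and 24.9% rose (22.5% and 18.5% without scaling factors, with a shift of the median of -0.13). The log2 fold change was -1.03 ± 0.13 for miR-7a-1-3p (adjusted p = 3.9e-05 in edgeR's test), the 5th smallest p of that comparison. miR-7a-2-3p fell by 0.57 ± 0.13 on the log2 scale (adjusted p = 0.00242), and miR-7b-3p fell by 0.83 ± 0.25 (adjusted p = 0.0154). The first 2 of these calls held under every alternative run. The guides differed by 0.07 ± 0.16 for miR-7a-5p (95% interval -0.27 to 0.41) and 0.07 ± 0.13 for miR-7b-5p (-0.20 to 0.34), and by -0.056 and -0.054 without scaling factors. The median over the arms was -0.57, beside 0.06 over all microRNAs tested. Both WT comparisons use the same WT-water libraries, so they are not independent. Between WT-exercise and WT-corticosterone no arm was called, and 0% of 521 microRNAs were (adjusted p = 0.999 for each arm in edgeR's test, 20 microRNAs at an unadjusted p below 0.05).

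**Figure D2:**
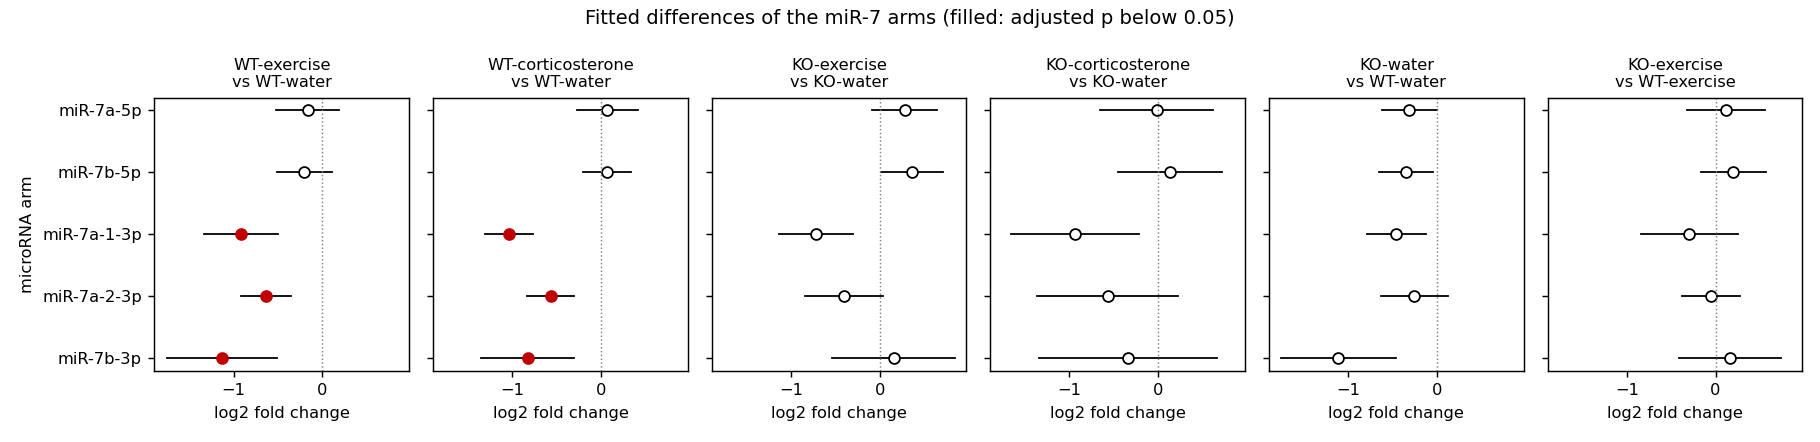
Fitted log2 fold change of each miR-7 arm in 6 comparisons, with 95% intervals as horizontal lines and filled points for an adjusted p below 0.05. The 3p arms lie left of 0 in both WT treatment comparisons, at -0.57 to -1.13, while the 5p arms stay between -0.20 and 0.07.

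In KO mice miR-7a-1-3p was also lower in treated libraries, but the difference was not called in edgeR's test, and with exercise the call changed with the processing. It had 117, 142, 155.5, 157 and 169.8 CPM in KO-exercise and 122 and 156.5 CPM in KO-corticosterone. In KO-water the lowest, median and highest levels were 201, 223 and 361 CPM. Every treated KO library lay below every KO-water library. The log2 difference was -0.72 ± 0.19 in KO-exercise against KO-water (SE, adjusted p = 0.0593) and -0.94 ± 0.32 in KO-corticosterone against KO-water (adjusted p = 0.547, 95% interval -1.66 to -0.22). Groups that did not overlap, with the treated one lower, were found for 2.29% of 523 microRNAs with exercise and 3.65% of 576 with corticosterone. With only the KO-water libraries of the genotype table the exercise difference was -0.62 (adjusted p = 0.00914), and with only the other 3 it was -0.94 (adjusted p = 0.0102). The first of these fits called 32.8% of all microRNAs, and the second also called more than the 4.02% of the fit on all of KO-water. For KO-corticosterone the libraries of the genotype table gave a called difference (adjusted p = 0.0352). That fit called 19.15% of all microRNAs, against 0.521% with all of KO-water. Leaving out KO-water replicate 2 or 6 also brought the exercise difference past the threshold, with adjusted p of 0.0370 and 0.0364. The exercise difference was also called by DESeq2 (-0.79, adjusted p = 0.000784), by edgeR with DESeq2 size factors (0.0317) or a minimum mean of 10 CPM (0.0383), and in a joint fit of all 6 groups (0.0131). It was not called without scaling factors, with no filter, under the replicate block or by code letter, and the direction was the same in all these fits.

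miR-7a-2-3p had 116, 120, 146, 148 and 152 CPM in KO-exercise, 113 and 157 CPM in KO-corticosterone, and 99.35, 199 and 223 CPM as the lowest, median and highest in KO-water. KO-water replicate 2 was lower than every treated KO library, and the other 5 KO-water libraries were higher than all of them. The log2 difference was -0.40 ± 0.20 in KO-exercise against KO-water (adjusted p = 0.332 in edgeR's test) and -0.57 ± 0.35 in KO-corticosterone against KO-water (adjusted p = 0.770). Without KO-water replicate 2 the exercise value was -0.53 (adjusted p = 0.0493), and with only the KO-water libraries of the genotype table it was -0.67 (adjusted p = 0.00408). The latter fit called 32.8% of all microRNAs. With only the other KO-water libraries, which include replicate 2, the exercise difference of miR-7a-2-3p was not called. miR-7b-3p had 72.8, 85.6, 87.8, 132.2 and 154 CPM in KO-exercise, 74.0 and 91.6 CPM in KO-corticosterone, and 49.3, 95.96 and 170.99 CPM as the lowest, median and highest in KO-water. It showed no separation of treated from water libraries in KO mice, with a log2 difference of 0.16 ± 0.32 under exercise.

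miR-7a-5p had 2718, 2776, 3423, 3546 and 3932 CPM in KO-exercise, 2403 and 3402 CPM in KO-corticosterone, and 1799, 2955 and 3479 CPM as the lowest, median and highest in KO-water. miR-7b-5p had 963, 1043, 1199, 1277 and 1341 CPM in KO-exercise, 980 and 1190 CPM in KO-corticosterone, and 646, 939 and 1219 CPM in KO-water. The guides overlapped between treated and water libraries. In KO-exercise against KO-water the log2 difference was 0.28 ± 0.17 for miR-7a-5p (adjusted p = 0.453) and 0.36 ± 0.16 for miR-7b-5p (adjusted p = 0.289 in edgeR's test). None of the 5 arms was called with exercise, where 4.02% of microRNAs were called, nor with corticosterone, where 0.521% were. The 21 microRNAs called with exercise were 16 higher and 5 lower, against 15 and 9 with DESeq2 size factors. The median over the arms with exercise was 0.16, beside -0.01 over all microRNAs tested. The exercise differences of the guides depended on the KO-water libraries: with those of the genotype table they were 0.48 (adjusted p = 0.0190) and 0.53 (adjusted p = 0.00817), and with the other 3 they were -0.01 and 0.09. The fit with the libraries of the genotype table called 32.8% of all microRNAs.

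Genotype without treatment was compared as KO-water against WT-water. All 5 arms averaged lower in KO-water and none was called, with log2 differences of -0.31 ± 0.15 for miR-7a-5p, -0.35 ± 0.14 for miR-7b-5p, -0.46 ± 0.16 for miR-7a-1-3p, -0.25 ± 0.18 for miR-7a-2-3p and -1.11 ± 0.31 for miR-7b-3p. Adjusted p ran from 0.0598 for miR-7b-3p to 0.305 for miR-7a-2-3p in edgeR's test. Other processing called miR-7b-3p: DESeq2 (adjusted p = 0.0107), a joint edgeR fit of all 6 groups (0.0199), no filter (0.0344) and a minimum mean of 10 CPM (0.0465). DESeq2 called miR-7a-1-3p as well (adjusted p = 0.0304). Of 545 microRNAs 0% were called, 179 had an unadjusted p below 0.05, and DESeq2 called 115. The median over the arms was -0.35, beside -0.08 over all microRNAs tested.

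For the guides and miR-7b-3p that difference was larger in the 3 KO-water libraries of the genotype table than in the other 3. miR-7a-5p had 1799, 2317 and 2630 CPM in them, 3279, 3301 and 3479 CPM in the other 3 KO-water libraries, and 3143 to 4130 CPM in WT-water. miR-7b-5p had 646, 805 and 859 CPM, against 1018, 1092 and 1219 CPM in the other 3. miR-7b-3p had 49.3, 51.6 and 93.0 CPM, against 98.9, 133 and 170.99 CPM in the other 3. Each of these arms was thus lower in all 3 libraries of the table than in any other KO-water library, as were 32.1% of the 532 microRNAs tested.

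Against WT-water, the 3 libraries of the table gave log2 fold changes of -0.45 ± 0.11 for miR-7a-5p (adjusted p = 0.00371), -0.46 ± 0.12 for miR-7b-5p (adjusted p = 0.00354), -0.50 ± 0.11 for miR-7a-1-3p (adjusted p = 0.00101) and -1.56 ± 0.37 for miR-7b-3p (adjusted p = 0.00310). In that set 4 of the 5 arms fell, where 27.9% of the 581 microRNAs tested fell. miR-7a-2-3p did not follow, at 191, 205 and 223 CPM in those libraries and a log2 difference of 0.06 ± 0.12 (adjusted p = 0.664 in edgeR's test). The other 3 KO-water libraries against WT-water gave no called arm and 0% of 587 microRNAs called (24 at an unadjusted p below 0.05). Their difference was -0.09 ± 0.11 for miR-7a-5p, -0.47 ± 0.19 for miR-7a-2-3p and -0.70 ± 0.33 for miR-7b-3p (edgeR adjusted p of 0.890, 0.877 and 0.877). These 3 libraries include the one in which miR-7a-2-3p was lowest. Without KO-water replicate 1, 2 or 5 the fit over all of KO-water called miR-7b-3p (adjusted p of 0.0264, 0.0209 and 0.0336); without replicate 1 or 5 it called miR-7a-1-3p (0.0428 and 0.0194), and without replicate 1 it called miR-7b-5p (0.0469).

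Between the genotypes under exercise all arms overlapped. Group means were 148 ± 20.2 CPM in KO-exercise and 181 ± 74.1 CPM in WT-exercise for miR-7a-1-3p, and 3279 ± 521 and 3032 ± 849 CPM in the same order for miR-7a-5p (SD, n = 5 each). No arm was called, 0% of 517 microRNAs were, and 5 had an unadjusted p below 0.05 (adjusted p = 0.999 for each arm in edgeR's test). The genotype-by-exercise interaction, tested over 4 groups, called no arm and 0% of 571 microRNAs (101 at an unadjusted p below 0.05). miR-7b-3p had the largest interaction of the arms, at 1.20 ± 0.43 on the log2 scale (adjusted p = 0.190), beside 0.49 ± 0.21 for miR-7b-5p and 0.37 ± 0.24 for miR-7a-5p. With only the KO-water libraries of the genotype table, these 3 arms were called too, at 1.82, 0.78 and 0.70 (adjusted p of 0.00462, 0.00604 and 0.0256). That fit called 252 microRNAs, which was 42.3% of all those tested in it. With only the other KO-water libraries none of these 3 arms was called. The interactions of miR-7a-1-3p and miR-7a-2-3p were 0.11 ± 0.27 and 0.14 ± 0.23 over all of KO-water and passed in none of these fits. The genotype-by-corticosterone interaction called no arm and 0% of 630 microRNAs (65 at an unadjusted p below 0.05; adjusted p of 0.720 or more for the arms).

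Ordered by group mean from low to high, miR-7a-1-3p averaged 139 CPM in KO-corticosterone, 148 in KO-exercise, 167 in WT-corticosterone, 181 in WT-exercise, 253 in KO-water and 354 CPM in WT-water, and each neighbouring pair overlapped. In the same way miR-7a-5p averaged 2801 CPM in KO-water, 2902 in KO-corticosterone, 3032 in WT-exercise, 3279 in KO-exercise, 3530 in WT-water and 3601 CPM in WT-corticosterone, again with overlap between all neighbours.

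The ratio of arms within a library does not depend on scaling, and it was set up as miR-7a-5p counts over the summed counts of miR-7a-1-3p and miR-7a-2-3p. The ratio was 6.70, 8.38, 10.1, 10.2 and 11.9 in WT-exercise. Its lowest, median and highest values were 8.51, 11.7 and 14.2 in WT-corticosterone and 5.15, 5.82 and 7.42 in WT-water. All 6 WT-corticosterone libraries and 4 of 5 WT-exercise libraries exceeded every WT-water library. The mean log2 difference was 0.87 for WT-corticosterone (exact two-sided permutation p = 0.00117, the smallest that 6 against 7 libraries can give, adjusted over 7 comparisons to 0.00816). For WT-exercise it was 0.62 (exact permutation p = 0.00758, adjusted 0.0265). Within code letter G the WT-exercise difference was 0.40 and within letter H 1.02, with adjusted p of 0.188 and 0.389, over at most 8 libraries. The libraries of letter H are too few for the exact test to give a p under 0.05. For those of letter G it cannot give an adjusted p under 0.05.

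In KO mice the miR-7a arm ratio was 10.6, 10.8, 11.66, 11.70 and 12.8 in KO-exercise, 8.63 and 12.6 in KO-corticosterone, and 4.54, 6.16 and 10.97 as the lowest, median and highest in KO-water. KO-water replicate 2, at 10.97, lay among the treated libraries, and the other 5 KO-water libraries were at or below 6.85. The mean log2 difference of KO-exercise from KO-water was 0.86 (exact permutation p = 0.0130, adjusted 0.0303). The call was lost without KO-water replicate 1, 3, 4, 5 or 6 (adjusted p of 0.0556 each) and without KO-exercise replicate 2, 3 or 5 (0.0667 each). For KO-corticosterone it was 0.72 (adjusted p = 0.2 in the exact permutation test), where 2 against 6 libraries cannot give less than 0.0714. KO-water, with a median of 6.16, and WT-water, with a median of 5.82, differed by 0.07 on the log2 scale (exact permutation, adjusted p = 0.747).

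**Figure D3:**
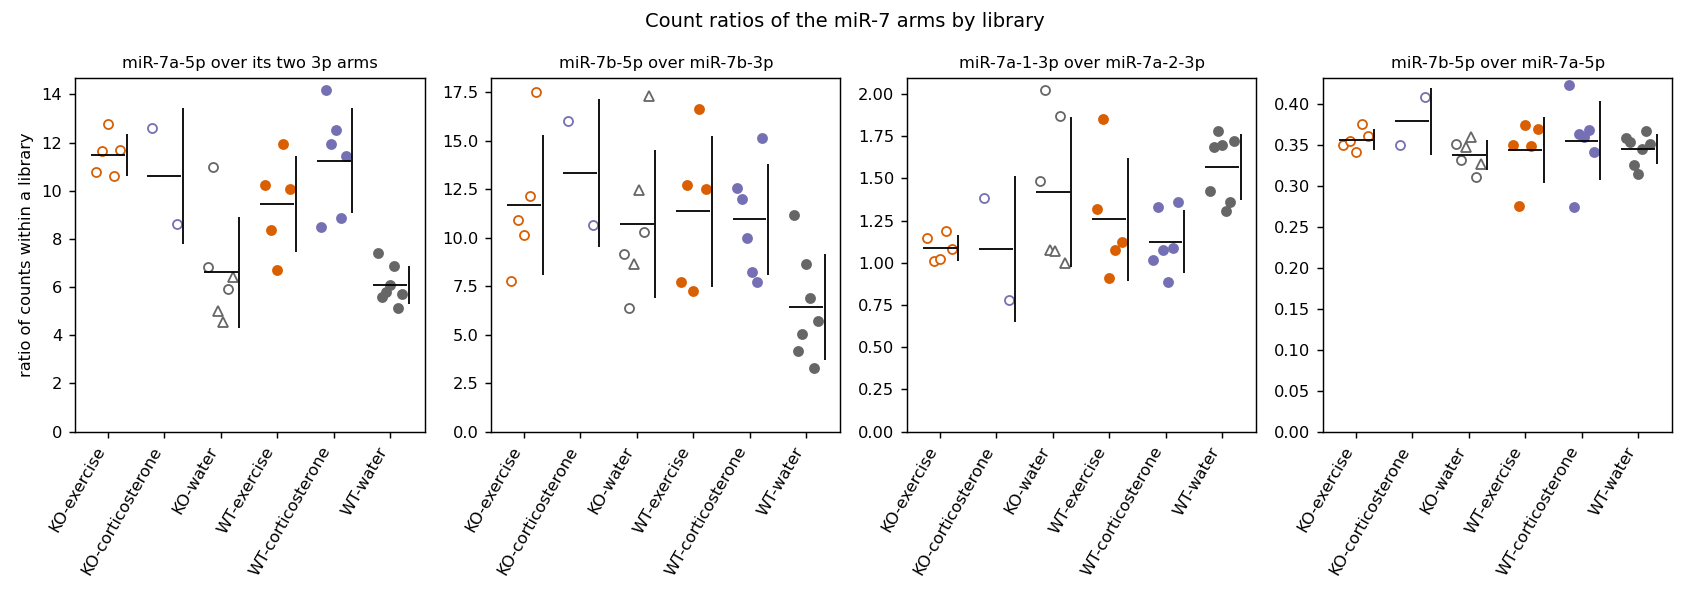
Ratios of counts within each library (linear axes from 0) for miR-7a-5p over its 3p arms, miR-7b-5p over miR-7b-3p, miR-7a-1-3p over miR-7a-2-3p and miR-7b-5p over miR-7a-5p, with lines at the group mean and 1 SD on either side; KO libraries are open, and triangles are the KO-water libraries of the genotype table. The miR-7a arm ratio is 8.51 or more in all WT-corticosterone libraries and at most 7.42 in WT-water, while the ratio of the guides stays between 0.274 and 0.423 in all groups.

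The guides kept a similar mean proportion in all groups. The ratio of miR-7b-5p to miR-7a-5p averaged 0.356 ± 0.0129 in KO-exercise, 0.379 ± 0.0410 in KO-corticosterone, 0.338 ± 0.0180 in KO-water, 0.343 ± 0.0398 in WT-exercise, 0.355 ± 0.0482 in WT-corticosterone and 0.345 ± 0.0185 in WT-water (SD). None of 7 comparisons passed, with adjusted p from 0.606 to 0.846 in exact permutation tests.

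The passengers of the 2 miR-7a hairpins moved less evenly. The ratio of miR-7a-1-3p to miR-7a-2-3p averaged 1.26 ± 0.364 in WT-exercise, 1.13 ± 0.185 in WT-corticosterone and 1.57 ± 0.196 in WT-water. The log2 difference of WT-corticosterone from WT-water was -0.48 (exact permutation p = 0.00583, adjusted 0.0408), and 4 of 6 WT-corticosterone libraries lay below every WT-water library. That call was lost without any of WT-water replicates 1, 2, 3, 4 or 7 (adjusted p = 0.0758 each), without WT-corticosterone replicate 2 (0.0530) and without WT-corticosterone replicates 1, 3, 4 or 5 (0.0884 each). For WT-exercise the difference was -0.35 (adjusted p = 0.265 in the exact permutation test), and without WT-exercise replicate 2 it was -0.50 (0.0424). In KO-water the ratio was 1.00, 1.07 and 1.08 in the libraries of the genotype table, against 1.48, 1.87 and 2.02 in the other 3.

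For miR-7b the ratio of 5p to 3p averaged 11.4 ± 3.91 in WT-exercise, 10.9 ± 2.84 in WT-corticosterone and 6.42 ± 2.74 in WT-water. The log2 differences were 0.86 and 0.84, and neither passed after adjustment (adjusted p = 0.0766 each in exact permutation tests). KO-water, at 10.7 ± 3.81, differed from WT-water by 0.78 with the same adjusted p. By code letter the difference was 0.40 within G and 1.73 within H for WT-exercise, 0.55 within G for WT-corticosterone, and 0.40 within G and 1.62 within H for KO-water, none called (adjusted p of 0.259 or more in exact permutation tests). Within H the libraries are too few for that test to give a p under 0.05, and within G it cannot give these differences an adjusted p under 0.05. Without WT-water replicate 1 the WT-corticosterone difference was 0.99 (adjusted p = 0.0455).

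Changes of arm ratio were common among hairpins, so miR-7 was set beside all 142 arm pairs with enough counts, each taken as the more abundant arm over the other and tested with limma. In WT-exercise against WT-water 30.3% of the pairs had a higher ratio at an adjusted p below 0.05, and in WT-corticosterone 26.8% did. The median log2 differences were 0.10 and 0.05. miR-7a-5p over miR-7a-1-3p had a log2 difference of 0.77 ± 0.17 with exercise (limma adjusted p = 0.00757), 25th highest of 142, and 1.08 ± 0.15 with corticosterone (0.000112), 17th highest. miR-7a-5p over miR-7a-2-3p had 0.42 ± 0.17 (adjusted p = 0.0751, 56th) and 0.60 ± 0.15 (0.00681, 39th). miR-7b-5p over miR-7b-3p had 0.86 ± 0.31 (0.0428, 22nd) and 0.84 ± 0.27 (0.0221, 26th) in limma, where the exact test above did not pass. In KO-exercise against KO-water 4.23% of pairs had a called higher ratio with a median difference of -0.02. miR-7a-5p over miR-7a-1-3p was among them at 0.99 ± 0.19 (limma adjusted p = 0.0143), 5th highest of 142, and its groups did not overlap, as for 2.82% of pairs. The pairs of Mir7-1 and Mir7-2 share miR-7a-5p and are not independent.

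**Figure D4:**
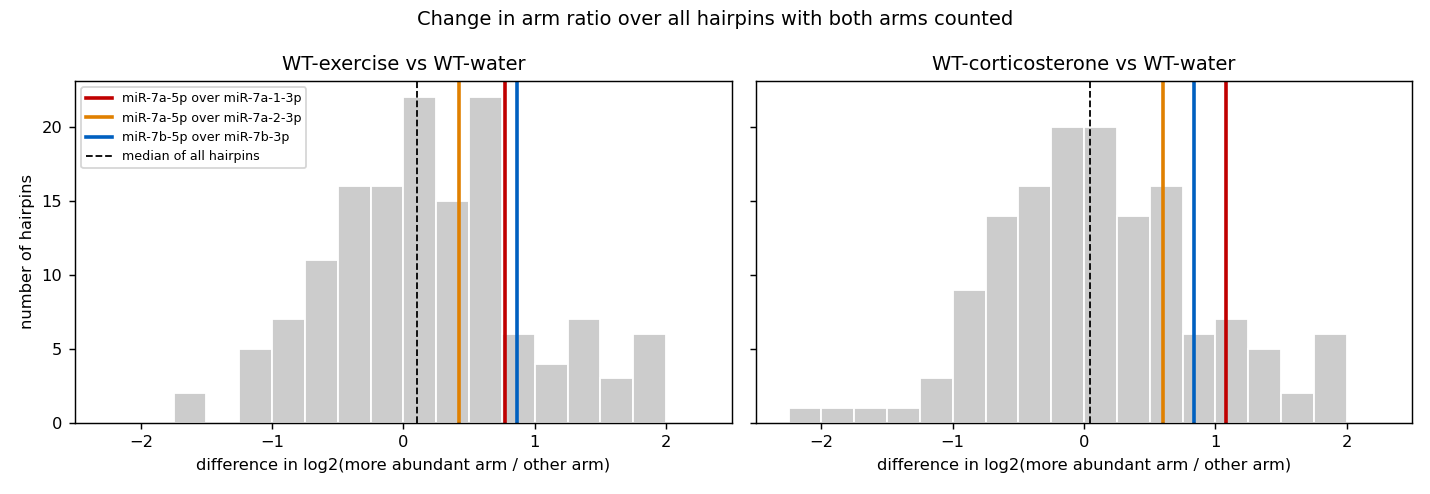
Number of hairpins (grey bars, 142 arm pairs) by the difference in log2(more abundant arm / other arm) of WT-exercise (left) and WT-corticosterone (right) from WT-water, with coloured lines for the miR-7 pairs and a dashed line at the median. The miR-7 pairs lie right of the medians of 0.10 and 0.05, at 0.42 to 0.86 with exercise and 0.60 to 1.08 with corticosterone, within the range of other hairpins.

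Across the 31 libraries, after each group's mean was subtracted from log2 CPM, the microRNA most like miR-7b-5p of 463 others was miR-7a-5p (Spearman 0.90). For miR-7a-5p the highest were miR-543-3p (0.93), let-7a-1-3p (0.90), miR-7b-5p (0.90), miR-340-5p (0.89) and miR-9-5p (0.88), and the lowest were miR-378a-3p (-0.85), miR-486b-5p (-0.84) and miR-145b (-0.82). For miR-7b-5p, miR-543-3p (0.86) and let-7a-1-3p (0.82) came next. The passengers followed the guides less closely, with 0.56 between miR-7a-5p and miR-7a-1-3p, 0.20 between miR-7a-5p and miR-7a-2-3p, and 0.39 between miR-7b-5p and miR-7b-3p. Subtracting group means leaves the split within KO-water and the spread within WT-exercise in these values, and 2 microRNAs that mark those libraries moved with miR-7a-5p too: miR-219a-5p at 0.76 and miR-218-5p at -0.68. The values share libraries and depth and describe covariation only; the part of that split in them was not tested.

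Partners of miR-7 in the Cdr1as circuit and microRNAs of neuroendocrine cells were taken as a list of 6, of which 4 were tested. miR-671-5p directs cleavage of Cdr1as. It had 239, 385, 615, 651 and 758 CPM in WT-exercise and 344, 451 and 662 CPM as the lowest, median and highest in WT-water, and the groups overlapped. Its log2 difference was 0.31 ± 0.26 with exercise (adjusted p = 0.353) and 0.38 ± 0.23 with corticosterone (adjusted p = 0.186) in edgeR's test. miR-375-3p, a microRNA of pituitary and islet cells, fell with exercise by 0.84 ± 0.28 on the log2 scale (adjusted p = 0.0366), at 18.6 to 32.3 CPM in WT-exercise against 26.1 to 71.7 CPM in WT-water. It was the only called member of the list in these 5 comparisons of treatment or genotype with water, and the list's median log2 difference was -0.11 with WT exercise, beside 0.04 over all microRNAs. In KO mice miR-375-3p was 21.2 to 29.4 CPM with exercise and 5.27 to 50.6 CPM in KO-water, a log2 difference of 0.34 ± 0.42 (adjusted p = 0.744 in edgeR's test).

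Markers of other cell types differed between the same WT groups. Over all microRNAs tested, 19.9% rose and 12.7% fell with exercise, and 24.9% rose and 17% fell with corticosterone. The summed level of 4 oligodendrocyte microRNAs was 2000 to 6807 CPM in WT-exercise, 2241 to 6705 CPM in WT-corticosterone and 5973 to 7410 CPM in WT-water, and 1 of 4 (miR-338-3p) fell with each treatment. For 5 microglial and blood immune cell microRNAs the sums were 2699 to 10040, 2697 to 8432 and 2439 to 3528 CPM in the same order, with 3 of 5 raised by exercise and 4 of 5 by corticosterone. Of 4 vessel microRNAs 2 rose with each treatment (14300 to 22560, 13390 to 21300 and 12840 to 18490 CPM). Of 4 red blood cell microRNAs 1 fell with exercise, and with corticosterone 2 rose and 1 fell (441 to 1827, 516 to 1168 and 1187 to 2439 CPM). Among the 5 listed for choroid plexus and ciliated cells, 1 rose with each treatment (6255 to 10100, 7400 to 32700 and 6607 to 25080 CPM). Of 5 pituitary and neuroendocrine microRNAs, 4 were tested with exercise and 3 with corticosterone. Among these 1 rose with each and 1 fell with exercise, and the 5 summed to no more than 177 CPM in these groups. The 4 neuronal microRNAs, led by miR-124-3p and miR-9-5p, summed to 312600 CPM or more in every library, the most of any list, in tissue labelled as hippocampus. In KO-exercise against KO-water, where 4.02% of all microRNAs were called, 2 of 5 immune markers, miR-142a-3p and miR-146a-5p, rose. No other marker of these lists was called there. The KO-water libraries of the genotype table, the other 3 KO-water libraries and the WT-water libraries differed in the same sums: 7088 to 7935, 2475 to 3267 and 2439 to 3528 CPM for immune cells, in that order. For vessels the sums were 23370 to 26490, 11280 to 15700 and 12840 to 18490 CPM, for oligodendrocytes 1925 to 2788, 4956 to 6286 and 5973 to 7410 CPM, and for red blood cells 533 to 664, 1208 to 1643 and 1187 to 2439 CPM. None of the listed markers was at 0 throughout. The part of these markers in the miR-7 differences, in WT and in KO mice, was not tested.

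Levels of miR-219a-5p, an oligodendrocyte microRNA, and of miR-218-5p, a neuronal microRNA singled out after its values were seen, marked the libraries that stood apart. miR-219a-5p averaged 54.7 CPM in the KO-water libraries of the genotype table, 769 CPM in the other 3 and 1079 CPM in WT-water, and miR-218-5p averaged 61910, 21870 and 16890 CPM in the same order. WT-exercise replicates 1 and 2 had 18379 and 17448 CPM of miR-218-5p, within the WT-water range of 13490 to 18406 CPM. In those 2 libraries miR-7a-2-3p was 141 and 166 CPM and miR-7a-1-3p 186 and 308 CPM. These were the highest values of WT-exercise, though below every WT-water library. The other 3 WT-exercise libraries, with miR-218-5p at 42992 to 57554 CPM, had 125 to 137.5 CPM of miR-7a-2-3p and 124.5 to 148 CPM of miR-7a-1-3p. miR-7b-3p was 152 CPM in replicate 1, within the WT-water range of 125 to 349 CPM, and 71.2 to 90.1 CPM in the rest of WT-exercise. The part of this split in the miR-7 differences was not tested. In tissue samples, fewer cells of a type and less RNA per cell cannot be told apart.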

How the data were processed

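Small RNA from 31 right hippocampi was sequenced on an Ion Torrent S5, per the labels' protocols. The authors deposited 5 tables of read counts per mature microRNA, whole numbers that had not been normalized and were identical where tables share a library. The submitters' processing notes name limma 3.54.1, featureCounts, Subread, BWA and cutadapt 2.3, and the build GRCm38 (mm10), with no role or order. No source says whether the counting used strand. No 2 libraries of a group agreed within sampling noise (lowest chi-square per degree of freedom 16.1), and 391 of the 1966 microRNAs had no count.

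Groups followed the labels. Each comparison was fitted on its own 2 groups over all microRNAs with edgeR 4.0.16 in R 4.3.3 (filterByExpr, TMM, estimateDisp, robust glmQLFit, glmQLFTest, Benjamini-Hochberg adjustment), and interactions on 4 groups. Standard errors came from the F statistic. Ratios within a library, with 0.5 added to each count sum except in the ratio of the guides, were compared by exact two-sided permutation over libraries, adjusted over 7 comparisons. Arm pairs of all hairpins were tested with limma 3.58.1. DESeq2 1.42.0 served as an alternative. The miR-7b arm ratio, the test of all arm pairs, ratios within a code letter and the comparison between the sets of KO-water libraries were added after the data were seen. The rule for named microRNAs was all miR-7 arms, the Cdr1as and neuroendocrine list, cell type marker lists, neighbours by rank, and the microRNAs most and least like miR-7a-5p or most like miR-7b-5p. The members and lists were chosen with earlier results of these data known. Same-numbered replicates were not paired: in no comparison did every same-numbered pair correlate above 0.1. The fit was tested on simulated counts.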

Additional observations from a re-analysis of the deposited data

Results flagged for a closer look

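In 45 sets of values (5 arms and 4 ratios, each in the 5 groups of 4 to 10 libraries), 5 held a library far from the others by Dixon's criterion, which chance meets in about 1 in 20 sets. miR-7a-1-3p was 228.5 CPM in WT-corticosterone replicate 2, with the other 5 libraries at 138 to 165 CPM. That library also had the highest miR-7a-5p of its group, at 5679 CPM. miR-7a-2-3p was 99.35 CPM in KO-water replicate 2, with the others at 191 to 223 CPM, and the miR-7a arm ratio of the same library was 10.97, with the others at 4.54 to 6.85. miR-7b-3p was 152 CPM in WT-exercise replicate 1, with the others at 71.2 to 90.1 CPM. The ratio of miR-7b-5p to miR-7a-5p was 0.275 in WT-exercise replicate 2, with the others at 0.348 to 0.374.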

How the results depend on the processing

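Called falls of miR-7a-1-3p and miR-7a-2-3p with WT-corticosterone held under all 9 alternatives and all 13 fits that left out a library, and in WT-exercise under all 12 such fits. In WT-exercise neither was called within code letter G (adjusted p of 0.233 and 0.203 in edgeR's test), and miR-7a-2-3p was not under the replicate block. The 27 differences of single arms kept their direction and side of the threshold in 262 of 297 alternatives that kept all libraries and in 359 of 376 that left one out. Of the changed calls, 22 and 9 were gained and 7 and 0 lost. Comparisons with KO-water depended most on which of its libraries entered; the cause was not tested. KO-corticosterone has 2 libraries, which limits every statement on it, and when 1 was left out the lone library was assumed to vary like KO-water.

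The share of tested microRNAs called moved as follows. DESeq2 called 21.1% in KO-water against WT-water (0% in edgeR), 7.27% in KO-exercise against KO-water (4.02%), 1.86% in KO-corticosterone against KO-water (0.521%), 0.192% in WT-exercise against WT-corticosterone (0%) and 1.61% for the exercise interaction (0%). A joint fit of all 6 groups gave 11%, 6.38%, 1.28% and 0.159% for the first 4 of these. For KO-water against WT-water, DESeq2 size factors in edgeR gave 4.77%, a minimum mean of 10 CPM 9.05% and no filter 1.58%, and with no filter KO-exercise against KO-water gave 0.783%. With only the KO-water libraries of the genotype table the shares were 60.9% for KO-water, 32.8% for KO-exercise, 19.2% for KO-corticosterone, 42.3% for the exercise interaction and 34.03% for the corticosterone interaction. With only the other KO-water libraries KO-exercise gave 21.7% and KO-corticosterone 7.08%. Code letter G alone gave 1.74% in WT-exercise (32.5% in all), 25.2% in WT-corticosterone (41.9%) and 0.557% in KO-exercise, and letter H alone 0.177% in KO-exercise and 0% in KO-corticosterone (edgeR; DESeq2 gave 1.86% over both letters).

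The replicate numbers did not pair the libraries. With the number as a replicate block calls were 6.85% of microRNAs in WT-exercise, 1.35% in KO-exercise and 4.00% in KO-corticosterone. Under the block miR-7a-2-3p (-0.59, adjusted p = 0.0618) and miR-7b-3p (-0.92, 0.0720) were no longer called with WT-exercise, nor miR-7b-3p with WT-corticosterone (-0.77, 0.0706) in edgeR's test. The blocked miR-7a arm ratio differences were 0.55 for WT-exercise and 0.86 for both WT-corticosterone and KO-exercise. The blocked ratio of the miR-7a 3p arms was -0.46 for WT-corticosterone. None of these was still called, with adjusted p of 0.109, 0.0729, 0.109 and 0.265 in that order. The exact test here flipped the sign of each pair's difference. With 5 or 6 pairs it cannot give these ratios an adjusted p under 0.05. The blocked ratio of the guides in WT-exercise was 0.0097.

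Within code letter G the miR-7a arm ratio differed by 0.40 in WT-exercise and 0.87 in KO-exercise, and within letter H by 1.02 and 0.86, none called. Within H, and for KO-exercise within G, the libraries are too few for the exact test to give a p under 0.05. For WT-exercise within G it cannot give an adjusted p under 0.05, nor for the miR-7a 3p ratio in WT-corticosterone within G. Within G the miR-7a 3p ratio in WT-corticosterone was -0.55, not called, the ratio of the guides in KO-water reversed to 0.03, and miR-7b-3p with WT-corticosterone was not called (-0.60, adjusted p = 0.0943). Within H the 3p ratio of KO-exercise against WT-exercise reversed to 0.041. With the KO-water libraries of the genotype table, the arm ratio was 1.13 in KO-exercise (not called) and reversed to -0.20 in KO-water, the 3p ratio in KO-exercise reversed to 0.053, and miR-7a-2-3p in KO-water to 0.063. For KO-exercise against either set of 3 KO-water libraries, the exact test of the arm ratio cannot give an adjusted p under 0.05. With the other KO-water libraries, the arm ratio in KO-exercise was 0.59 (not called), the 3p ratio in KO-water reversed to 0.19, miR-7a-5p and miR-7b-3p in KO-exercise to -0.0078 and -0.31, and the exercise interaction of miR-7a-1-3p to -0.011. Omitting scaling factors moved the median of all microRNAs by -0.13 in KO-water, 0.14 in KO-corticosterone, and 0.21 and 0.19 in the exercise and corticosterone interactions; miR-7a-5p and miR-7b-5p in WT-corticosterone reversed to -0.056 and -0.054.

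Leaving out 1 library at a time, the share called ranged from 0% to 29.2% in KO-water against WT-water (29.2%, 21.4% and 19.5% without KO-water replicate 5, 1 or 2), 18.4% to 48.8% in WT-exercise (48.8% without WT-exercise replicate 2; 18.4%, 19.4% and 20.1% without replicate 5, 4 or 3), 2.42% to 5.58% in KO-exercise (2.42% without KO-exercise replicate 4) and 0% to 0.17% for the exercise interaction. The miR-7a arm ratio ranged from 0.76 to 1.02 in KO-exercise, 0.19 to 0.40 in KO-exercise against WT-exercise (called only without WT-exercise replicate 4, at 0.40 with an exact permutation adjusted p of 0.0278) and -0.092 to 0.16 in KO-water. The miR-7a 3p ratio ranged from -0.54 to -0.42 in WT-corticosterone, -0.50 to -0.25 in WT-exercise, -0.81 to 0.023 in KO-corticosterone and -0.019 to 0.24 in WT-exercise against WT-corticosterone. The ratio of the guides ranged from -0.022 to 0.10 in WT-corticosterone, -0.047 to 0.064 in WT-exercise, -0.017 to 0.094 in KO-exercise against WT-exercise and -0.12 to 0.033 in WT-exercise against WT-corticosterone. In WT-corticosterone miR-7a-5p ranged from -0.15 to 0.13 and miR-7b-5p from -0.054 to 0.12, and miR-7b-3p in KO-exercise from -0.020 to 0.37.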
